A study of Mus musculus with 3 samples.

Results

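The genes described are the C-type lectin receptors and their close relatives, taken as all mouse gene symbols that begin with Clec and a digit or with Cd209, together with Klrb1c, Klrd1, Klrk1, Olr1, and Cd69. The rule found 46 genes in the RefSeq gene table (GRCm38.p6), and 42 of them were matched to the array through a RefSeq transcript, out of 19738 genes with a symbol. Clec7a (Dectin-1, the β-glucan receptor), Cd209g, Clec2f, and Clec2j matched no probe by this route and were not analysed here. RNA came from CD11b+Gr1-F4/80+ macrophages sorted by flow cytometry from collagenase-digested whole backskin (epidermis and dermis) of untreated female mice of CD1 background, at postnatal days 42, 55, and 69 of the second telogen, the resting phase of the hair follicle. RNA of 3 littermate mice was pooled per day, preamplified, labeled with Cy3, and hybridized to 1 Agilent array per day. The groups are named P42, P55, and P69 after the sample labels, and for the earliest of these stages the text of the study gives a slightly later day. With 1 pool and 1 array per day, no difference between days can be set against a spread between mice, no p-value is given, and "higher" and "lower" describe these arrays only.

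C-type lectin receptors carry a fold that in many members binds sugars in a calcium-dependent way, and in others binds proteins or lipids without calcium. On macrophages and dendritic cells they recognise fungal, bacterial, and self ligands and either take them up or signal. Dectin-2, Mincle, and their relatives signal through immunoreceptor tyrosine-based activation motifs and the kinase Syk to Card9 and NF-κB, whereas Dcir and similar receptors recruit the phosphatases Ptpn6 and Ptpn11. Receptors of the Clec2 and Klr families are mostly used in recognition between natural killer (NK) cells and their targets, and the members of the Dectin-1, Dectin-2, and Cd209 groups lie in gene clusters.

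Promoter sequences are shown for 4 Cd209 genes, which were all at least 2-fold lower at P69 than at P42, and for the neighbouring genes Clec4d and Clec4e, whose signals differed from P42 in opposite directions at P55. Each sequence is from RefSeq (GRCm38.p6), runs 5′ to 3′ along the strand of the gene, and covers 250 bases before and 50 after the start of the transcript, for a total of 300. Capitals mark matches on either strand to GAGGAA (reverse complement TTCCTC), a core of sites for the myeloid factor PU.1, to TTCNNNNGAA, the spaced palindrome read by STAT6, or to TATAAA (reverse complement TTTATA), the TATA box; the motifs share no letters in these sequences.
Cd209a, chr8:3748935-3749234, minus strand: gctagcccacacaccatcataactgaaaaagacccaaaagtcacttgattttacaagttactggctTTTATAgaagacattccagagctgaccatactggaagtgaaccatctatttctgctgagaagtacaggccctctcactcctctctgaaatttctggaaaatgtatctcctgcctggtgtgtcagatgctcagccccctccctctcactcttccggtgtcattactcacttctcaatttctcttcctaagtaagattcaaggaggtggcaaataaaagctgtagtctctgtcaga
Cd209c, chr8:3946814-3947113, minus strand: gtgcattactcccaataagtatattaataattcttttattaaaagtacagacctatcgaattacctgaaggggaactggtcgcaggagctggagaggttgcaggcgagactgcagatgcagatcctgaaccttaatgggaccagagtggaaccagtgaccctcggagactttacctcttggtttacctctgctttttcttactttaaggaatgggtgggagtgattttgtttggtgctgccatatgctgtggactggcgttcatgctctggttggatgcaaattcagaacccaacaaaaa
Cd209d, chr8:3878450-3878749, minus strand: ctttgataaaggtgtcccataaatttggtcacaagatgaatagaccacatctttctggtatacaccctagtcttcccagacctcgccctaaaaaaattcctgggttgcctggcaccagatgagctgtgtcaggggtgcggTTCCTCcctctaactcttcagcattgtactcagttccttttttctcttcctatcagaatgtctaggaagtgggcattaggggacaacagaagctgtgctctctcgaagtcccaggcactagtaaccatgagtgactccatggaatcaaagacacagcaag
Cd209e, chr8:3854237-3854536, minus strand: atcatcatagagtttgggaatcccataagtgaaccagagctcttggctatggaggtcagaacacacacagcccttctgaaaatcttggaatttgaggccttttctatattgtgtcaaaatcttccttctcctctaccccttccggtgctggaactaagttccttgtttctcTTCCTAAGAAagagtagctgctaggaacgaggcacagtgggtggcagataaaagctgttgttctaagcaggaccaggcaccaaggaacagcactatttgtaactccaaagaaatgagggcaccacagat
Clec4d, chr6:123261857-123262156, plus strand: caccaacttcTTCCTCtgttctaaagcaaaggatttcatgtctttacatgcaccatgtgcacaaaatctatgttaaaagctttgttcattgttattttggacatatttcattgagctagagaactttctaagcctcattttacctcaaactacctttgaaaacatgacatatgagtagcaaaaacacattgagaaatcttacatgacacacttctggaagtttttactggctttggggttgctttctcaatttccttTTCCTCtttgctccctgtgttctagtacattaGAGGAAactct
Clec4e, chr6:123289822-123290121, minus strand: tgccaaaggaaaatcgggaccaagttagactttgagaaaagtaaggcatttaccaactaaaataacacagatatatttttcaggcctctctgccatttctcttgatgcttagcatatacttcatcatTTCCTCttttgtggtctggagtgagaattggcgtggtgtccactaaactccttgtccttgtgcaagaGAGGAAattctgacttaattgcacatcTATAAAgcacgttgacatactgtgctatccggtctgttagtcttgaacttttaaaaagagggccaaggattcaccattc

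Promoter sequences were given for 34 of the members, with 36 promoters in all. GAGGAA was present in 17 of these 36 promoters (47.2%), compared to 28.3% of all 32851 promoters in the table. Among the Dectin-2 and Dcir group it was present in 6 of 8, those of Clec4a1, Clec4a3, Clec4b1, Clec4b2, Clec4d, and Clec4e. Among the members placed in no other group it was present in 5 of 5 (Clec5a, Clec11a, Clec14a, Clec16a, and Clec18a). Among the sugar receptors it was present only in that of Cd209d (1 of 8). TTCNNNNGAA was found in 11.1% of the member promoters (Cd209e, Clec4a1, Clec4b2, and Clec5a) and in 6.95% of all, and TATAAA in 25.0% and 13.6%. A match describes only the letters of these windows.

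The level of a gene is the log2 signal of its brightest probe relative to the 75th percentile of the same array, so levels compare arrays for one probe and not different probes. At P42, 71.4% of 55681 probes were called well above background by the scanner software, compared to 59.6% at P55 and 68.7% at P69, and no spot was saturated. Repeated spots gave a difference between 2 arrays an SD of 0.166 (P55) or 0.173 (P69), which covers neither mice, sorts, nor amplification. All 15 macrophage markers measured were well above background on the 3 arrays, including Itgam (CD11b) and Adgre1 (F4/80), and 12 of 12 keratinocyte markers were as well, with a median of 3.33 higher at P55 and 3.22 higher at P69 than at P42 (log2). The part of keratinocyte RNA in the results was not tested. The 2 kinds of deposited files name the later arrays in opposite ways, because the P55 column of the value table matched the P69 scanner file (99.9% of 36380 probes within 0.05 of a constant log2 offset) and its P69 column matched the P55 file (99.8%). Levels are given as the scanner files are assigned, and exchanging the P55 and P69 arrays exchanges every P55 value below with the P69 value of the same gene.

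Of the 42 genes, 25 were well above background on all 3 arrays, compared to 13081 of all 19738 genes. Of the others, 2 were so on 2 arrays (Clec4e and Clec5a) and 3 on 1 array (Cd69, Clec9a, and Klrk1). The remaining 12 were well above background on none of the arrays, namely Clec1a, Clec2g, Clec2h, Clec2m, Clec3a, Clec4a2, Clec4a4, Clec4b2, Clec4f, Clec12a, Clec12b, and Clec18a. Detection differed between the groups. All 6 measured Cd209 genes were detected on all 3 arrays, whereas 6 of the 13 genes of the Dectin-1 and Clec2 group were, and of the Dcir genes Clec4a1 and Clec4a3 were detected and Clec4a2 and Clec4a4 were not. The plot of levels shows the genes detected on at least 1 array.

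**Figure D1:**
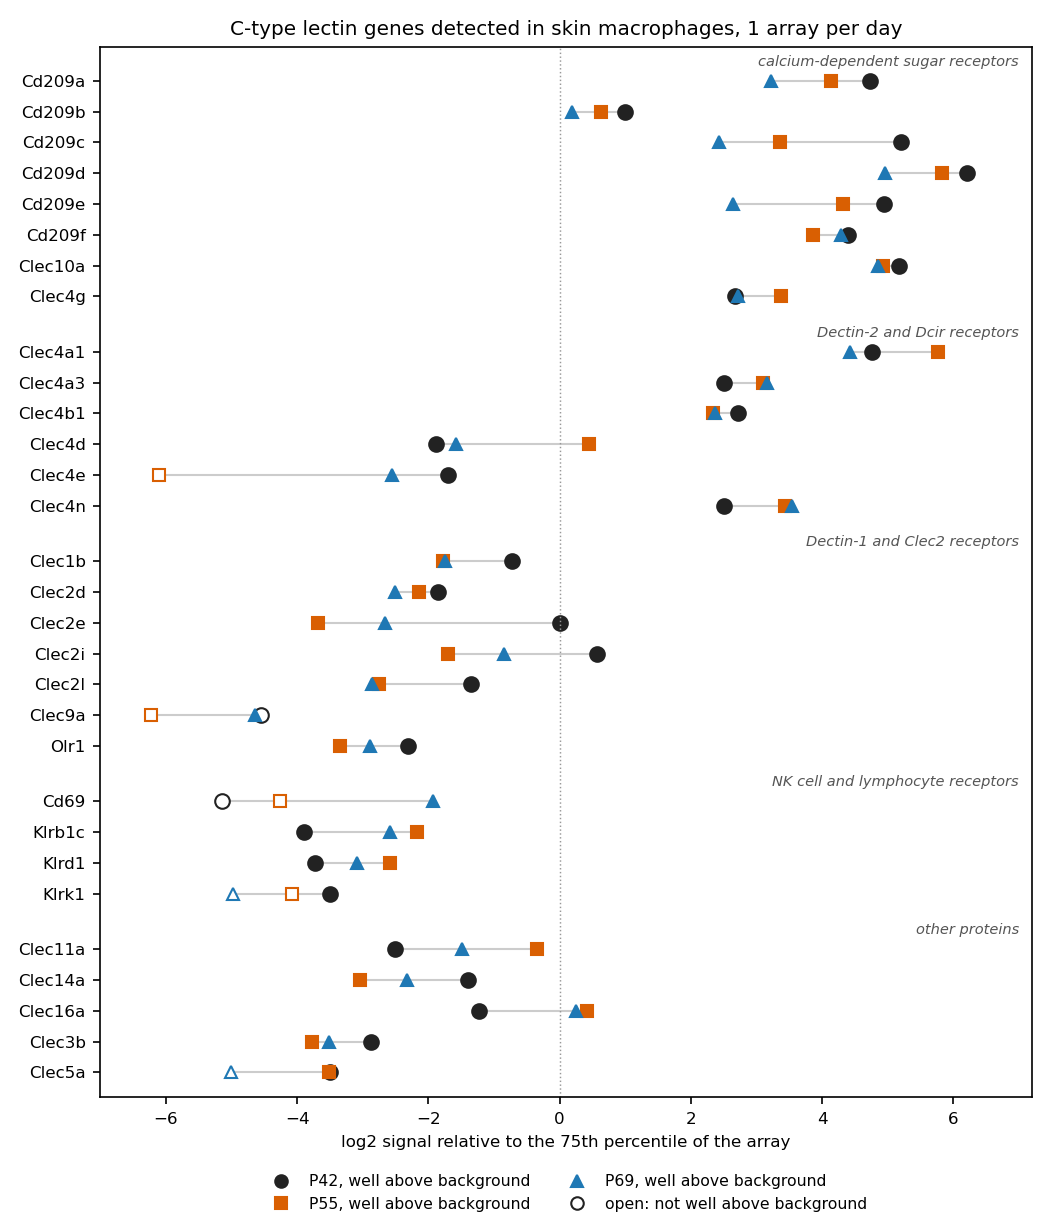
Level (log2 signal relative to the 75th percentile of the array) of each C-type lectin gene that was well above background on at least 1 array, at P42 (circles), P55 (squares), and P69 (triangles), with 1 array per day and open symbols where the probe was not well above background. The 6 Cd209 genes had their highest level at P42, and Clec4e is open at P55 only.

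Of the 25 genes detected on every array, 16 had their highest level at P42, 7 at P55, and 2 (Clec4a3 and Clec4n) at P69. The P42 level was the lowest of the 3 for 8 genes, Clec4a3, Clec4d, Clec4g, Clec4n, Clec11a, Clec16a, Klrb1c, and Klrd1. These orders were not counted over all genes, so whether they are particular to the lectin genes is not known. A change could be given at P55 for 28 genes and at P69 for 29. Of the 28, 6 were at least 2-fold higher than at P42 (21.4%) while 29.1% of all 15843 genes with a value were, and 8 were at least 2-fold lower (28.6%) while 16.9% of all genes were. At P69, 5 of 29 were at least 2-fold higher (17.2%, compared to 22.2% of 16163 genes) and 10 were at least 2-fold lower (34.5%, compared to 20.7%). The median change of the lectin genes was -0.38 at P55 and -0.65 at P69 (log2), compared to 0.22 and 0.15 for all genes. Some of these counts include bounds, in which a signal well above background is set against the lowest such signal of the dim array or the probe's own signal, whichever is higher.

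At the 10-fold threshold of the study's methods, Clec2e at P55 was the single member called. The share of all genes at least 10-fold higher was 1.12% at P55 and 0.668% at P69, and the share at least 10-fold lower was 0.316% and 0.464%. On both later arrays, 3 members were at least 2-fold higher than at P42 (Clec11a, Clec16a, and Klrb1c) and 5 were at least 2-fold lower (Cd209c, Clec1b, Clec2e, Clec2i, and Clec2l), and the corresponding numbers over all 19738 genes were 2587 and 1770. At P69 the dimmer detected probes of Clec16a, Klrb1c, and Clec1b gave changes or bounds under 2-fold. The later arrays share the P42 array, so their changes are not independent. Of the changes measured on both arrays (26 at each later day), those of Clec10a, Clec2d, and Clec5a at P55 and of Cd209f, Clec10a, Clec4a1, Clec4d, and Clec4g at P69 were within 2 SDs of the spot error (0.332 and 0.347).

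**Figure D2:**
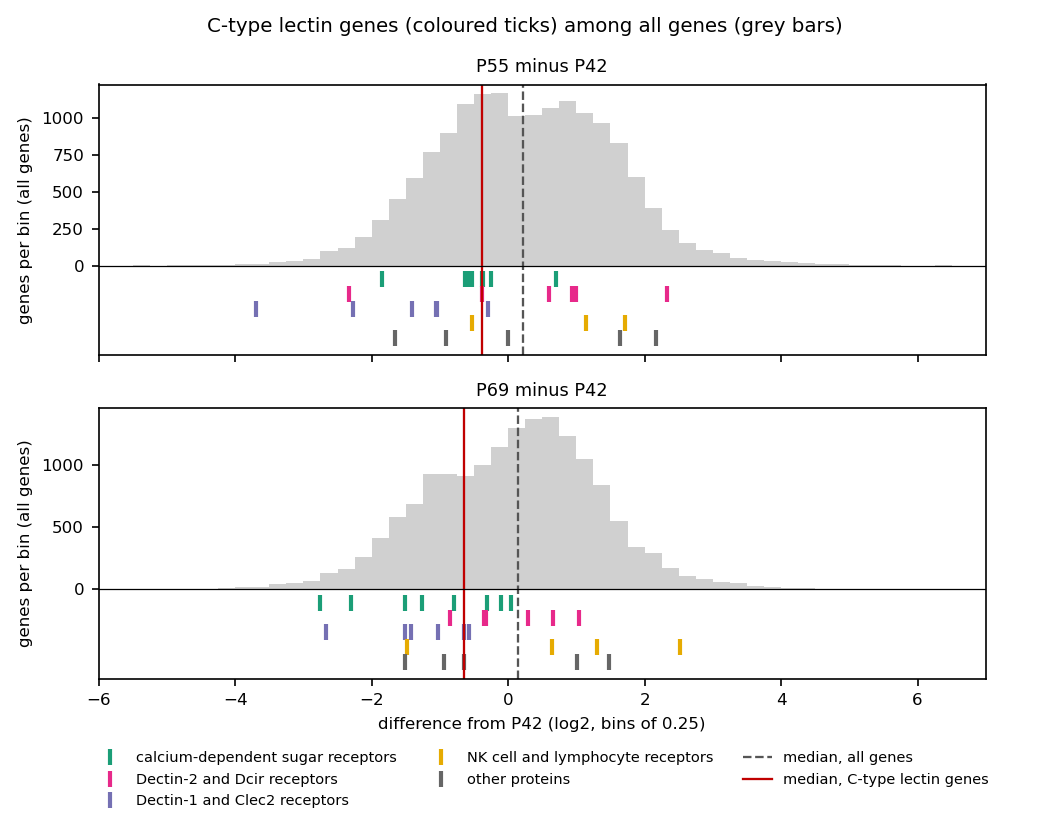
Number of genes (grey bars, left axis, bins of 0.25) by their log2 difference from P42 at P55 (top) and P69 (bottom), with the C-type lectin genes as ticks colored by group below the bars and the medians of all genes (dashed) and of the lectin genes (solid) as vertical lines. The lectin median lies at -0.38 at P55 and -0.65 at P69, to the left of the all-gene medians of 0.22 and 0.15.

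The Cd209 genes encode calcium-dependent receptors for mannose- and fucose-rich sugars related to human DC-SIGN. All 6 were lower at P55 and at P69 than at P42, as were 44.2% and 45.3% of all genes with a value. Cd209c (SIGNR2) was the most different, at 5.20 at P42, 3.36 at P55, and 2.44 at P69, a 3.59-fold and a 6.78-fold lower signal. A separate, dimmer probe of Cd209c read 1.89, -0.06, and -1.42, and was 3.85-fold lower at P55 and 9.90-fold lower at P69. Both probes of this gene were thus highest at P42 and lowest at P69. Cd209e (SIGNR4) was at 4.94, 4.31, and 2.64 on the arrays of P42, P55, and P69, a difference from P42 of -0.63 at P55 and -2.31 at P69. For Cd209e most of the difference lay between P55 and P69, where the level dropped by 1.68.

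Cd209a (DC-SIGN), known from dendritic cells and dermal macrophages, was at 4.72 at P42, 4.14 at P55, and 3.22 at P69, a difference of -0.58 and then of -1.51. A separate Cd209a probe was at 3.85, 4.21, and 3.29, with differences of 0.36 and -0.57, so that the 2 probes disagreed in direction at P55 and not at P69. Cd209d (SIGNR3), a receptor for mycobacterial sugars, was at 6.21, 5.83, and 4.95, or 1.31-fold lower at P55 and 2.39-fold lower at P69. The order P42, P55, P69 from high to low was the same as for Cd209c and Cd209e. Cd209b (SIGNR1), which binds bacterial polysaccharides in marginal zone macrophages, was at 0.99, 0.63, and 0.19, and its P69 difference was -0.80. Cd209f departed from this order with 4.40 at P42, 3.86 at P55, and 4.29 at P69, a P69 difference of -0.10.

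The 6 Cd209 genes remained below the median of all genes in both comparisons under each scaling tried. Relative to 0 the direction depended on the scaling. With the median of each array as the reference 3 of 6 were above 0 at P55 and 1 at P69, and without any scaling 2 of 6 were above 0 at P69. Their probes are from closely related genes, and their specificity was not tested. Among the protein-coding genes of the gene table Clec4g, Cd209a, Cd209e, Cd209d, Cd209b, Cd209c, and Cd209f follow each other on chromosome 8. Of the chromosome 8 run, Clec4g (LSECtin), known from sinusoidal endothelium of liver and lymph node, was the only gene above 0, with 2.67 at P42, 3.37 at P55, and 2.71 at P69, a difference of 0.70 and 0.04.

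Clec10a (MGL1), a macrophage receptor for galactose and N-acetylgalactosamine, was at 5.18, 4.93, and 4.86 and changed by less than 2 SDs of the spot error on both later arrays. Of the 8 sugar receptors with a value, 7 were below 0 at both days, with medians of -0.46 and -1.03, and 1 of them at P55 (Cd209c) and 4 at P69 (Cd209a, Cd209c, Cd209d, and Cd209e) were at least 2-fold lower. The medians were 0.10 at P55 with the median of each array as the reference and 0.13 at P69 with no scaling, against all-gene medians of 0.86 and 1.32 under these settings. Langerhans and dendritic cell markers were all detected (11 of 11), and their summed signal over the 75th percentile was 695 at P42, 854 at P55, and 467 at P69. Cd74 and H2-Ab1 made up most of this sum (46.8% and 39.0% at P42), while Cd207, Epcam, Irf8, and Itgax were at least 2-fold higher on both later arrays and Batf3 at least 2-fold lower, and the median change of the list was 0.19 at P55 and -0.91 at P69. For the 15 macrophage markers the sum was 931 at P42, 803 at P55, and 561 at P69, of which Itgam alone gave 53.2%, 52.7%, and 41.2%. The median change of the macrophage list was -0.44 at P55 and -0.35 at P69, with 10 of 15 genes below 0 on each array. C1qb and Cd163 were at least 2-fold lower on both later arrays, Maf at P55, and Itgam at P69. Lyve1 was at least 2-fold higher at P69. The part of either cell type in these differences was not tested, and fewer cells of a type and less RNA per cell cannot be told apart in pooled RNA.

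**Figure D3:**
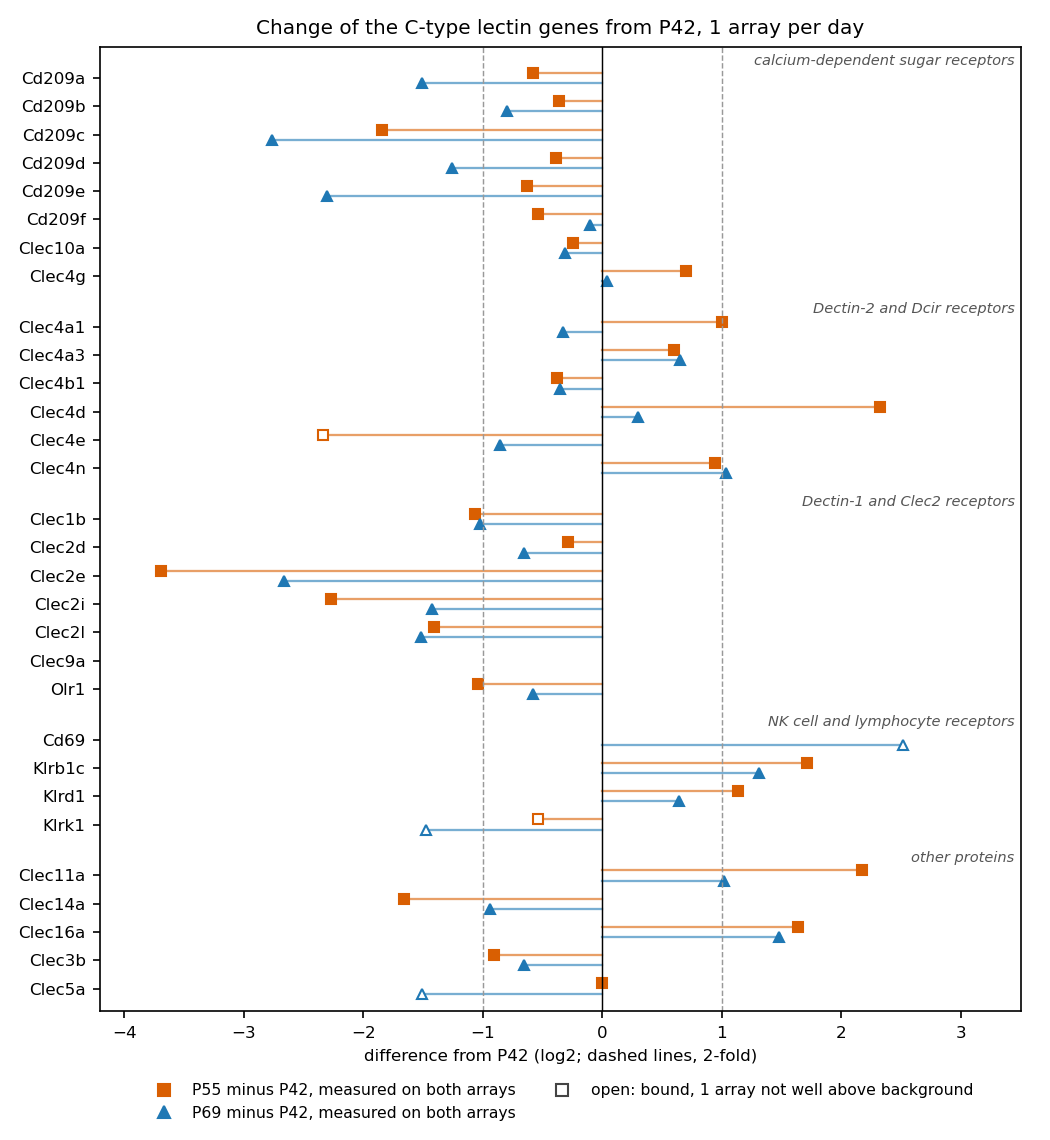
Difference from P42 (log2) at P55 (squares) and P69 (triangles) for each C-type lectin gene, grouped by role, with open symbols for bounds, dashed lines at 2-fold, and 1 array per day. All 6 Cd209 genes and the 6 Dectin-1 and Clec2 genes with a value lie to the left of 0 on both arrays, and Clec4d and Clec4e lie on opposite sides of 0.

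The Dectin-2 and Dcir group did not move one way. Clec4n (Dectin-2), which binds fungal mannans and signals through the Fc receptor γ chain, was at 2.50 at P42, 3.44 at P55, and 3.54 at P69, 1.92-fold and 2.05-fold higher. Its level at P55 and at P69 differed by 0.10, less than the spot error. Clec4a3, of the Dcir family, was at 2.50, 3.10, and 3.16, with differences of 0.60 and 0.65. Clec4a1, also of the Dcir family, was at 4.76 at P42, 5.76 at P55, and 4.43 at P69, 2.00-fold higher at P55 and 1.26-fold lower at P69. With the later arrays exchanged its change at P55 is therefore -0.33, the opposite direction. Clec4b1, an activating receptor of dendritic cells, was at 2.72, 2.34, and 2.37, a little below P42 on both later arrays.

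Clec4d (MCL) and Clec4e (Mincle) both recognise mycobacterial glycolipids and form a complex, and Clec4e also binds the nuclear protein Sap130 released from dead cells. Clec4d was at -1.88 at P42, 0.45 at P55, and -1.58 at P69, and so 5.01-fold higher at P55 and 1.23-fold higher at P69. Clec4e was at -1.71 at P42 and -2.56 at P69, and at P55 its probe was not well above background, which made it at least 5.04-fold lower there. At P69 Clec4e was 1.80-fold lower than at P42. The 2 genes are next to each other on chromosome 6, after Clec4n, and Clec4d was brightest on the array on which Clec4e was not detected. Each rests on 1 probe on 1 array, and with the later arrays exchanged the pattern belongs to P69. Their promoters, printed above, hold 3 (Clec4d) and 2 (Clec4e) matches to GAGGAA.

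Over the group, 2 of 6 genes with a value were at least 2-fold higher (33.3%, compared to 29.1% of all genes) and 1 lower (16.7%, compared to 16.9%) at P55, and 1 was higher and 0 lower at P69 (Clec4n), with medians of 0.77 and -0.02. The median at P69 was 0.16 with quantile normalization, 0.51 with the median of each array as the reference, and 1.15 without scaling. That at P55 was -0.35 in the value table, whose P55 column holds the array of the P69 scanner file. Without scaling all 6 were above 0 at P69, and relative to the median of all genes 3 were above and 3 below in that setting as in the main one. Neutrophil markers, of which 6 of 9 were detected on each array and Elane on none, had a summed signal of 84.2 at P42, 57.1 at P55, and 45.4 at P69. Csf3r alone gave 97.7%, 90.7%, and 93.1% of it, Cxcr2 was at least 2-fold higher on both later arrays and Ltf lower, and the median change of the list was 0.00 at P55 and -0.62 at P69. Their part in the Clec4d and Clec4e values was not tested.

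All 6 genes of the Dectin-1 and Clec2 group that had a value were below P42 on both later arrays. Of all genes with a value, 44.2% were below P42 at P55 and 45.3% at P69. The Clec2 proteins are ligands of NK cell receptors of the Nkrp1 family, and Clec2d (Clr-b) is widely expressed on blood cells. Clec2e (Clr-a) was at 0.01 at P42, -3.68 at P55, and -2.65 at P69, a 12.9-fold and a 6.34-fold lower signal. Clec2i (Clr-g) was at 0.58, -1.69, and -0.85, or 4.83-fold and 2.69-fold lower. For both genes the signal was lowest at P55 and partway back at P69, with differences between the later arrays of 1.03 and 0.85. Clec2l, known from the brain, was at -1.35, -2.75, and -2.86, 2.65-fold and 2.85-fold lower, and Clec2d was at -1.85, -2.14, and -2.51, with a P69 difference of -0.65.

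Clec1b (CLEC-2), the platelet receptor for podoplanin, was at -0.72 at P42, -1.78 at P55, and -1.74 at P69, 2.09-fold and 2.03-fold lower. Its change at P69 was 0.14 without scaling, where the median of all genes was 1.32. Of the remaining 2 Clec1b probes, 1 was dim on every array and 1 was well above background only at P42. The platelet markers had 4 of 7 genes detected at P42 and P55 and 5 at P69, with summed signals of 37.1, 35.3, and 26.5, and Gp9 and Gp1ba were on no array well above background. Pf4 alone gave most of this sum (96.6% at P55 and 96.7% at P69). At P55 Ppbp was at least 2-fold higher and Itga2b at least 2-fold lower, and at P69 Gp1bb was at least 2-fold lower. The median change of the list was -0.36 at P55, with 4 of 5 genes with a value below 0. At P69 it was -0.75, with all 4 below 0. The part of platelet RNA was not tested. Olr1 (LOX-1), the receptor for oxidised low-density lipoprotein, was at -2.31, -3.35, and -2.89, 2.05-fold lower at P55 and 1.49-fold lower at P69. Clec9a, which senses dead cells on dendritic cells of the Xcr1 type, was well above background only at P69, at -4.64, and no fold was given because this is under the lowest signal well above background at P42 (-4.44).

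The group had 5 of 6 genes at least 2-fold lower at P55 (83.3%, compared to 16.9% of all genes) and 4 at P69 (66.7%, compared to 20.7%), and its medians were -1.23 and -1.23. The 6 genes were below the median of all genes on both arrays under every scaling. With quantile normalization a seventh gene had a value at P69 and was above this median. Relative to 0, 1 of 6 was above at P55 with quantile normalization and with the median of each array, and without scaling 4 of 7 were above 0 at P69. The chromosome 6 run from Clec2e through Clec2d, Cd69, Clec2m, Clec12a, Clec12b, Clec1b, Clec9a, and Clec1a to Clec7a and Olr1 of protein-coding genes thus held genes that were lower on both later arrays next to genes that were dim on all arrays. Cd69 and Clec9a in this run were detected at P69 only, and Clec7a matched no probe.

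The signals of the NK cell receptor genes at P42 were within 1 log2 unit of the lowest signal well above background on that array. Klrb1c (NK1.1) was at -3.89 at P42, -2.18 at P55, and -2.59 at P69, 3.29-fold and 2.48-fold higher. Its dimmer probe was not well above background at P42 and at least 4.11-fold higher at P55, but at P69 the bound was 1.08-fold. Klrd1 (CD94), which pairs with NKG2 receptors, was at -3.73, -2.59, and -3.09, 2.20-fold higher at P55 and 1.56-fold higher at P69. Both genes were lowest at P42 and highest at P55. Klrk1 (NKG2D), which lies next to Klrd1 and binds stress-induced ligands, was on the contrary well above background only at P42, at -3.51, and at least 1.45-fold lower at P55 and 2.78-fold lower at P69. Cd69, an early activation marker of lymphocytes, was well above background only at P69, at -1.93, where it was at least 5.72-fold higher than at P42. NK and T cell markers were detected for 13 of 14 genes at P42, 10 at P55, and 12 at P69, with summed signals of 15.5, 21.3, and 15.3 and Eomes on no array. Prf1 gave 49.2% of the sum at P42 and 25.6% at P69. Cd2, Cd3e, Il2rb, and Nkg7 of this list were at least 2-fold higher on both later arrays and Ncr1 at least 2-fold lower. Gzma and Tbx21 were at least 2-fold lower at P69. Of 13 genes with a value, 30.8% at P55 and 38.5% at P69 were at least 2-fold higher (29.1% and 22.2% of all genes). The share at least 2-fold lower was 7.69% and 23.1% (16.9% and 20.7% of all genes). The median change of the list was 0.36 at P55 and 0.01 at P69. The part of these cells in the signals was not tested.

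The other proteins of the list are of several kinds, among them the receptors Clec5a and Clec14a. Clec11a (osteolectin), a secreted growth factor for hematopoietic and bone progenitors, was at -2.51 at P42, -0.34 at P55, and -1.49 at P69, 4.50-fold and 2.02-fold higher. Its P69 change was 0.43 with normexp background correction and 0.81 with the 75th percentile over detected probes. It was 1.49 with quantile normalization and 2.18 without scaling. Clec16a, an intracellular regulator of mitophagy, was at -1.22, 0.41, and 0.26, 3.11-fold and 2.79-fold higher, and its dimmer probe differed by 0.39 and -0.39. The brightest Clec16a probe thus stood apart from the dimmer one at P69 in direction. Clec14a, an adhesion receptor of endothelial cells, was at -1.39, -3.05, and -2.33, 3.15-fold lower at P55 and 1.92-fold lower at P69. The 10 endothelial markers were detected on all 3 arrays, with summed signals of 41.5, 30.3, and 39.2, a sum lowest at P55. Egfl7 gave 31.5%, 43.3%, and 33.8% of this sum and was at 3.71, 3.71, and 3.73. Vwf was highest at P55, at 1.49, 1.88, and 1.38. The median change of the list was -0.89 at P55, with 8 of 10 genes below 0, and -0.04 at P69, with 5 of 10 below 0. A dimmer Clec14a probe was well above background only at P69, where it was at least 1.99-fold higher than at P42, so that the 2 probes disagreed in direction and the median over them was 0.03 at P69.

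Clec3b (tetranectin), a secreted plasminogen-binding protein of mesenchymal cells, was at -2.87, -3.78, and -3.52, a difference of -0.91 and -0.65. The fibroblast markers, detected for 6 of 7 genes at P42, 5 at P55, and 7 at P69, had summed signals of 91.2, 42.6, and 46.4. Col3a1 and Col1a2 made up most of this sum (37.7% and 29.2% at P42). All 6 fibroblast genes with a value were below P42 at P55. At P69 the list was divided, with 4 of 7 genes below P42 and 3 above. Col1a1, Col3a1, and Dcn were at least 2-fold lower there, and Dpt was 3.62-fold higher. The part of endothelial and fibroblast RNA was not tested. Clec5a (MDL-1), a myeloid receptor that signals through Tyrobp, was at -3.50 at P42 and -3.51 at P55 and not well above background at P69, where it was at least 2.84-fold lower. In the value table, whose P69 column holds the array of the P55 scanner file, this difference was in the P55 column (-1.51), and the P69 change was 0.0002.

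Downstream of the activating receptors, all 21 listed genes of Syk signaling were well above background on all 3 arrays. Of these, 6 were at least 2-fold higher at P55 and 0 lower (Bcl10, Card9, Hcst, Malt1, Plcg2, and Vav1), and 4 were higher and 0 lower at P69 (Bcl10, Card9, Malt1, and Plcg2), with medians of 0.65 and 0.16. These counts are 28.6% and 19.0% of the list, beside the 29.1% and 22.2% of all genes given above, so the share that was higher was near the background, while no gene of the list was in the 16.9% and 20.7% that were at least 2-fold lower. Card9, the adaptor between Syk and NF-κB, was at 0.89 at P42, 3.35 at P55, and 2.90 at P69, differences of 2.46 and 2.01. Its partners Bcl10 (1.79 and 1.87 above P42) and Malt1 (1.37 and 1.89) differed in the same direction, as did the phospholipase Plcg2 (2.13 and 1.56). The Syk and Fcer1g changes were 0.99 and 0.65 at P55 and 0.80 and -0.42 at P69.

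The 3 phosphatase genes that serve inhibitory receptors were above P42 as well. Ptpn6 (SHP-1) was at 3.40, 5.35, and 4.73, differences of 1.95 and 1.33, and Ptpn11 (SHP-2) was at 1.29, 2.78, and 2.83, differences of 1.49 and 1.54. Inpp5d (SHIP-1) was 1.47 above P42 at P55 and 0.64 above at P69.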

How the data were processed

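The authors pooled RNA of sorted macrophages of 3 mice per day, amplified it, labeled it with Cy3, hybridized 1 Agilent array per day, all on 1 slide, and quantified the images with Feature Extraction 10.7.3.1. The deposited scanner files hold linear spot intensities, background-subtracted by the software and not normalized between arrays, with flags for each spot. The authors also deposited a table of log2 values of 36409 probes, centered on each probe's median over the 3 arrays, whose scaling between arrays is not given in the sources used here. Its column medians were 0.36 (P42), 0 (P55), and 0 (P69), and it holds 29 of the 42 genes.

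Control spots and outlier spots (162, 274, and 281) were left out, replicate spots were averaged, and the log2 processed signal was scaled to each array's 75th percentile. Detection required the well-above-background flag on a share of at least 0.5 of a probe's spots. The median SD of repeated spots (10 or more per probe) was 0.126, 0.108, and 0.119 (log2) over 217, 145, and 160 probes. Through RefSeq transcripts 26056 probes had a symbol, and the brightest probe stood for a gene. All 42 genes are accounted for: those detected on at least 2 arrays are named with every value, those detected on 1 array with a bound (Clec9a allowed none), and the rest by name. From the other lists, the genes at least 2-fold in the same direction on both later arrays may be named, and Syk, Fcer1g, and Inpp5d, and the other genes printed with values outside this rule, were chosen after their values were seen. The counts of the Syk signaling list leave out 1 gene that is not reported here. The members, lists, and tests were chosen with earlier results of these data known. Precision is limited by the number of arrays, and no test was possible. The analysis used Python 3.11.15, pandas 2.3.3, and limma 3.58.1 (normexp, offset 50), and the steps were tested on simulated data.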

Additional observations from a re-analysis of the deposited data

How the results depend on the processing

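No paired analysis was possible because each day has 1 array and no result comes from a test. Each of the 11 alternatives was run on the 2-fold counts, the medians, and the 54 changes of named genes, of which the value table held 38 and detection on both arrays left 52. Of 576 values of named genes, 269 moved by less than the spot error and 307 by more. The sign was opposite in 36, of which 13 came from no scaling and 11 from the median of each array, and 32 of them belong to changes under 2-fold. For changes of at least 2-fold the opposite signs were those of Clec4a1 at P55 with the value table (-0.33) or the later arrays exchanged (-0.33), Clec5a at P69 with the value table (0.0002), and Clec1b at P69 without scaling (0.14). The value-table signs of Clec4a1 and Clec5a are not separate from the exchange of the later arrays. With the median of each array as the reference, 5 lectin genes were at least 2-fold lower at P55 and 3 at P69, with medians of 0.18 and -0.10. With quantile normalization the medians were -0.57 and -0.21 and 6 genes were lower at P69. With the 75th percentile over detected probes the medians were -0.76 and -0.86, and 3 genes were higher at P69. Without scaling the medians were -0.12 and 0.55, with 10 genes higher and 3 lower at P69. With normexp 5 genes were lower at P55 and 2 higher at P69. The value table holds the later arrays exchanged and was used without the detection filter. In it 15 of 29 lectin genes were at least 2-fold lower at P55 (35.9% of all genes), with a median of -1.02. Without the filter on dim probes 14 were lower at P55, and with the median over a gene's probes 3 were higher at P69. With the later arrays exchanged the medians were -0.65 at P55 and -0.38 at P69. In all these settings the median of the lectin genes was below that of all genes, which ranged from -0.16 to 0.86 at P55 and from -0.08 to 1.32 at P69. Low signals limit the Klr genes at P42 and Clec9a, and the lowest signals well above background were -4.44, -4.04, and -5.01.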

Other observations

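Genes with a lectin fold outside the rule were measured for 35 of the listed genes, and 31 had a value on each later array. Of these, 6 were at least 2-fold higher at P55 (19.4%, compared to 29.1% of all genes) and 3 lower (9.68%, compared to 16.9%), and at P69 6 were higher (19.4%, compared to 22.2%) and 8 lower (25.8%, compared to 20.7%), with medians of -0.31 and -0.20. On both later arrays Cd207, Cd72, Klrc1, Klrg1, and Ly75 were higher and Asgr1 and Reg3g lower. Cd207 (langerin), the receptor of Langerhans cells, was at 3.78 at P42, 6.76 at P55, and 5.90 at P69, and Cd72, an inhibitory receptor of B cells and myeloid cells, was at 0.92, 4.03, and 3.16. Klrc1 (NKG2A), which pairs with the Klrd1 protein, was at -2.14, -0.20, and 0.50, and so, unlike Klrd1, was highest at P69. Ly75 (DEC-205), an uptake receptor of dendritic cells, was well above background only on the later arrays, at -1.41 and -1.15, at least 3.03 and 3.29 above P42. Asgr1, a chain of the receptor for galactose-ended glycoproteins, was at -0.90, -1.99, and -2.63. The part of Langerhans cells in these values was not tested.

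Of 8 genes of the ligand list, 3 were at least 2-fold higher on both later arrays, as were 2587 of all 19738 genes. H2-T23 and Cd209a, a member described above that the list also holds, were at least 2-fold lower at P69. The other Cd209a probe was 1.48-fold lower there. Pdpn (podoplanin), the ligand of Clec1b, was at -0.99 at P42, 0.66 at P55, and 0.52 at P69, but its other probe was at -0.45, -0.39, and -0.66, with differences of 0.06 and -0.22. Sap130, a ligand of Clec4e, was 1.78 above P42 at P55, the array on which Clec4e was not detected, and 1.18 above at P69. Myl9, a ligand of Cd69, differed by 1.18 and 1.41. Of 7 genes of cytokines induced through Dectin receptors, Il10 was at least 2-fold lower on both later arrays, at -0.33, -1.72, and -3.50, and Il1b was at least 2-fold lower at P69. Tnf was 4.57-fold higher at P55 and 1.78-fold higher at P69, and Cxcl2 was 2.17-fold higher at P69. The median of the list was -0.30 at P55 and 0.36 at P69.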
